A study of Mus musculus with 7 samples.

Results

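Txnip and the thioredoxin system were followed in the hearts of fasted mice with and without KLF15. The members are the α-arrestin genes Txnip, Arrdc3 and Arrdc4, the thioredoxin genes Txn1 and Txn2 and the thioredoxin reductase genes Txnrd1 and Txnrd2. Every probe set that the platform annotation assigns to exactly 1 of these symbols was taken, which gave 14 of the 22626 probe sets and 6 of the 7 genes, among 12393 genes with such a probe set. No such probe set carried the symbol Arrdc3. The genes were selected on the measured KLF15-null against WT differences, in which Txnip had been seen to differ, so the values of all members in this contrast are given as a description, with no p-value. Calls of the fit across all probe sets are only counted for them, beside the share over all probe sets.

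Whole-heart RNA from 4 wild-type (WT) and 3 KLF15-null mice had been hybridised to 7 Affymetrix 3' arrays. KLF15-null denotes mice without the transcription factor Krüppel-like factor 15. All 7 samples were labelled as C57/BL6 males, 3 to 4 months old and fasted for 18 h. How the null allele was made, and whether a sample is a single animal or a pool, is not stated in the sources used here, so p-values measure only the spread between these samples. The labelled contrast asks how the genotypes differ in the fasted heart, and with no fed group the effect of the fast cannot be read.

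TXNIP, the thioredoxin-interacting protein, binds the active-site cysteines of reduced thioredoxin and, as an α-arrestin, promotes the removal of glucose transporters from the cell surface. Its gene is switched on by glucose through the transcription factors MondoA and ChREBP, which bind a carbohydrate response element together with their partner MLX. Thioredoxins reduce disulfides in other proteins and are themselves reduced by the selenoproteins called thioredoxin reductases, at the expense of NADPH. In heart muscle, thioredoxin 1 and its reductase work in the cytosol and nucleus, thioredoxin 2 and its reductase in mitochondria.

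The targeted gene, Klf15, averaged 8.87 ± 0.19 (SD, n = 4) on the log2 scale across the WT arrays. Across the KLF15-null arrays it averaged 6.33 ± 0.17 (SD, n = 3). Which bases the null allele lacks is not stated in the sources used here, so how far this checks the labels is unknown. Array medians lay between 6.22 and 6.33, while the 98th percentile reached 11.43 to 11.74 on WT and 11.86 to 12.02 on KLF15-null arrays. In the brightest 10% of the probe sets the median difference (KLF15-null minus WT, as for every difference here) was 0.35, against 0.00 over all 13576 probe sets bright enough to be tested. All 10 cardiomyocyte markers were bright enough. Taken by their brightest probe sets, 2 were higher and none lower at an adjusted p under 0.05 by limma. After cyclic loess normalization 1 was higher and 8 lower. Their summed linear signal was 108275 to 122762 in WT and 118696 to 134764 in KLF15-null hearts. With the probe sets of each gene averaged, 1 cardiomyocyte marker was higher and 2 lower. Myh6 stood at 0.21 on its brightest probe set, not past the threshold. Its other probe set was called lower, at -5.34. That value is a bound, since its KLF15-null mean of 3.93 lay under the level of 5.74 below which probe sets were not tested. The summed signal of 12 macrophage and monocyte markers was 3230 to 5585 in WT and 6394 to 8785 in KLF15-null hearts, with 5 higher and 2 lower. That of 4 neutrophil markers was 219 to 353 and 575 to 720, with 2 higher. These were S100a8 (2.19) and S100a9 (1.41), while Cxcr2 (-0.15) and Csf3r (-0.05) were not past the threshold. The summed signal of 8 fibroblast markers was 6074 to 10630 and 4741 to 5452, with 1 higher and 3 lower. That of 6 smooth muscle and pericyte markers was 6509 to 9641 and 10232 to 11601, with 1 higher and 1 lower. With each gene's probe sets averaged, 1 was higher and 2 lower, at a median of -0.02. Rgs5 stood at 0.29 on its brightest probe set, not past the threshold, and was called lower on others, at -3.82, -2.81 and -0.50. Pdgfrb, the higher one, had a further probe set called lower, at -0.43. The summed signal of 8 endothelial markers was 2672 to 3091 and 2034 to 3055, with 1 higher and 3 lower, Pecam1 (-2.24) and Emcn (-1.44) among the latter. Flt1, the higher one here, was called lower on another probe set, at -0.63. No listed marker can be called absent, since the table holds no detection calls. Each of these shifts ran alongside the member differences below, and their part in them was not tested. In whole tissue, fewer cells of a type and less RNA per cell cannot be told apart. Although all mice were labelled male, the brightest Xist probe set lay at the 91.4th percentile of all probe sets on the mean of the 7 arrays and the 7 probe sets of Eif2s3y, Kdm5d, Uty and Usp9y at or below the 27.3th. That Xist probe set averaged 9.90 in WT and 9.06 in KLF15-null hearts and was called lower, at -0.84. The other tested Xist probe set stood at -0.01, not past the threshold.

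Txnip was lower in KLF15-null hearts on both of its probe sets, by amounts that differed widely. Probe set 1415997_at read 11.16, 11.34, 11.65 and 11.48 on the WT arrays and 7.10, 6.50 and 7.06 on the KLF15-null arrays. The lowest WT value lay 4.06 above the highest KLF15-null value. The means were 11.41 ± 0.21 (SD, n = 4) and 6.89 ± 0.33 (SD, n = 3), a log2 difference of -4.52 or 23.0-fold lower signal. Only 2 of the 13576 tested probe sets had a larger fall. The largest, at -5.34, was on the dimmer probe set of Myh6, a gene that stood at 0.21 on its brightest. A place near the top of this ranking can thus rest on a probe set that another of the same gene does not share.

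The other Txnip probe set, 1415996_at, read 11.71, 11.84, 12.16 and 11.89 in WT and 11.54, 10.59 and 11.42 in KLF15-null hearts. Here too the groups did not overlap, but the gap between them was 0.17, smaller than the range of 0.45 within WT. The means were 11.90 ± 0.19 (SD, n = 4) and 11.18 ± 0.52 (SD, n = 3), a log2 difference of -0.72 or 1.64-fold lower signal. The size of this difference leaned on 1 library: without KLF15-null array 2 it was -0.42.

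Array by array, 1415996_at read 0.41 to 0.55 above 1415997_at in WT and 4.09 to 4.44 above it in KLF15-null hearts. A constant offset between probe sets has no meaning of its own, but here the offset differed between the genotypes. KLF15-null array 2 was the lowest of the 3 null arrays on both probe sets and WT array 3 the highest of the 4 WT arrays. The annotation assigns both probe sets to the same source sequence, and it does not give where along the Txnip transcript each one lies. Which reading stands for the amount of Txnip mRNA was therefore not settled here.

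**Figure D1:**
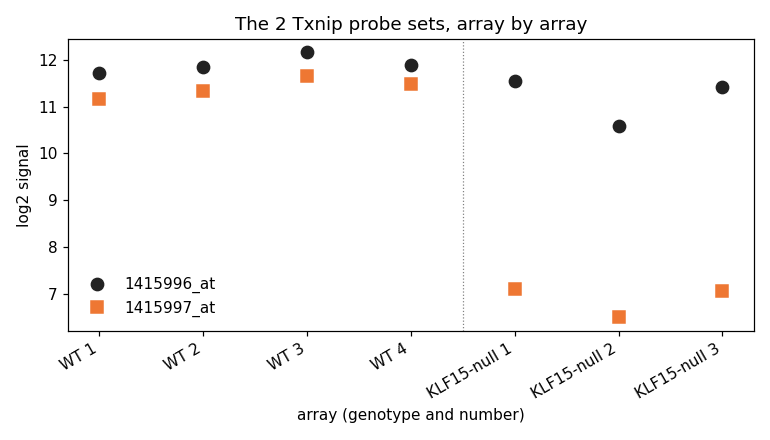
Log2 signal (vertical axis) of the Txnip probe sets 1415996_at (circles) and 1415997_at (squares) on each of the 7 arrays (horizontal axis, genotype and array number; the dotted line parts the genotypes). The squares drop from a WT mean of 11.41 to a KLF15-null mean of 6.89, whereas the circles move from 11.90 to 11.18, with KLF15-null array 2 lowest on both.

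Such a spread was uncommon on these arrays. That the 2 Txnip probe sets differ was known when the genes were chosen, so the place of Txnip is given only as a description. Among 2748 genes with at least 2 tested probe sets, the differences of a gene's probe sets spanned 0.83 at the median, and those of Txnip spanned 3.81, at the 99.5th percentile. Only 16 genes, Txnip included, had a span that large. Txn1 (2.07, at the 91st percentile) and Txnrd1 (1.94, at the 89.4th) also had wide spans, while Txnrd2 (1.18), Txn2 (0.28) and Arrdc4 (0.06) lay at the 67.5th, 19th and 4.15th.

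**Figure D2:**
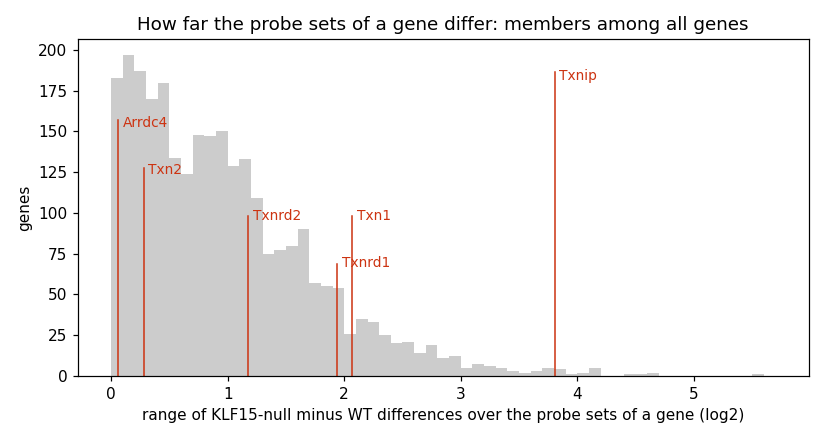
Histogram of the span of the KLF15-null minus WT differences (log2, horizontal axis) over the probe sets of each of 2748 genes (vertical axis, number of genes), with red lines at the 6 member genes, whose heights carry no meaning. Txnip, at 3.81, lies far to the right of the median of 0.83, and Arrdc4, at 0.06, near 0.

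The Txnip promoter is shown because it holds the element through which glucose is known to drive the gene. Txnip lies on the plus strand of chromosome 3 (GRCm38.p6, chr3:96557957-96561857), and the 250 bases before its start are chr3:96557707-96557956, from RefSeq. Capitals mark the pair of half-sites that form the carbohydrate response element and the CCAAT boxes upstream of it:
Txnip: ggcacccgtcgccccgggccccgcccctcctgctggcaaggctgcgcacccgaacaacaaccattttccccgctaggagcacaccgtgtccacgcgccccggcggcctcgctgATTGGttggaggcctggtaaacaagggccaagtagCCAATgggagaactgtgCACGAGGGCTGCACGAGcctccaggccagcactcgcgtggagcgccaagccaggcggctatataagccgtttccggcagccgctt

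The pair was searched as CACGNG, any 5 bases and CACGNG on both strands, a pattern that also takes in pairs of the E-box CACGTG. It occurred once in the Txnip window, 85 to 69 bases before the start, and in 15 of 32851 promoter windows of the same length (0.0457%). Those 15 windows belong to 14 genes, of which 7 were tested, 3 of them higher and 1 lower, beside 27.4% higher and 19.6% lower of all 8404 tested genes. The lower one is Txnip, whose difference was known when the members were chosen, so nothing is read from this count. CCAAT, searched on both strands, occurred at 137 to 133 and at 102 to 98 bases before the start, and in 33.8% of all windows. CACCC, a core bound by many Krüppel-like factors, was found 2 times on the plus strand, at 248 to 244 and 204 to 200 bases before the start, and in 52.0% of all windows. These are matches of letters, not sites shown to be bound.

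Arrdc4, an α-arrestin gene that MondoA also drives, did not share the lower signal. Its brighter probe set, 1426818_at, read 6.09, 5.96, 6.15 and 5.98 in WT and 6.17, 6.27 and 6.45 in KLF15-null hearts. The groups touched without overlapping, parted by 0.02, at a difference of 0.25. The dimmer one, 1424759_at, read 5.52 to 5.84 in WT and 5.73 to 5.98 in KLF15-null hearts, with overlap and a difference of 0.19. Both lay close to the level of 5.74 below which probe sets were not tested, and the WT mean of 1424759_at (5.67) was under it, where background may compress differences. Arrdc3, which lowers β-adrenergic receptors at the cell surface, has no value.

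The Arrdc4 promoter is given for comparison with that of Txnip. The gene lies on the minus strand (chr7:68736994-68749238) and the window is chr7:68749239-68749488, printed in the direction of the gene with the E-box and the CCAAT boxes in capitals:
Arrdc4: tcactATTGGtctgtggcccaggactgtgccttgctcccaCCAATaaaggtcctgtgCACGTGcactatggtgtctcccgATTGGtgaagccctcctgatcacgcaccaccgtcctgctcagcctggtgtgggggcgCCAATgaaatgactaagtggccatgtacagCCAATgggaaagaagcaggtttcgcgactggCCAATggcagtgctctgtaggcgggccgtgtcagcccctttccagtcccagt

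This window held a single CACGTG, 193 to 188 bases before the start, a sequence found in 6.02% of all windows, and 6 CCAAT boxes against 2 in Txnip. It held neither the paired element nor CACCC, which says only that these letters are not in these 250 bases.

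The cytosolic thioredoxin gene Txn1 (chr4:57943373-57956411) was read in opposite directions by its 2 probe sets. Of the 2748 genes with at least 2 tested probe sets, 576 (21.0%) had probe sets called in both directions. On 1416119_at the WT arrays read 9.74, 9.76, 10.20 and 9.92 and the KLF15-null arrays 11.15, 10.98 and 11.09. The groups were 0.78 apart, with means of 9.91 ± 0.21 (SD, n = 4) and 11.07 ± 0.08 (SD, n = 3) and a difference of 1.17, or 2.25-fold higher signal. On 1456734_at the WT arrays read 9.19, 9.15, 8.49 and 9.27 and the KLF15-null arrays 8.07, 8.49 and 7.81. WT array 3 and KLF15-null array 2 carried the same deposited value, so the groups met, and the difference was -0.90, or 1.87-fold lower signal. The annotation lists a source sequence for 1416119_at, a RefSeq transcript, and leaves that of 1456734_at blank.

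The mitochondrial thioredoxin gene Txn2 (chr15:77915051-77928994) was lower on all 3 of its probe sets, without overlap of the groups. Its brightest, 1455640_a_at, read 11.12, 11.02, 10.88 and 10.96 in WT and 10.53, 10.05 and 10.40 in KLF15-null hearts, a difference of -0.67. On 1421557_x_at, whose suffix marks probes that may cross-hybridize, the difference was -0.64, from 10.39 ± 0.08 (SD, n = 4) to 9.76 ± 0.14 (SD, n = 3). On 1452782_a_at it was -0.92, with KLF15-null array 2 at 7.94 and the other null arrays at 8.86 and 8.74. Txn2 was thus the member whose differences were closest in size across probe sets apart from Arrdc4, at 1.56-fold to 1.89-fold lower signal.

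Txnrd1, the cytosolic thioredoxin reductase gene (chr10:82833951-82897724), again gave opposite readings, as did 21.0% of genes with at least 2 tested probe sets. On 1421529_a_at the WT arrays read 8.43, 8.69, 8.63 and 8.56 and the KLF15-null arrays 10.11, 9.29 and 9.89. All 3 null arrays lay at least 0.60 above the highest WT array, and the difference was 1.18, or 2.27-fold higher signal. On 1424486_a_at the WT arrays read 7.84, 7.71, 7.27 and 7.81 and the KLF15-null arrays 6.69, 7.09 and 6.93, a difference of -0.76 without overlap. The third, 1424487_x_at, had means of 4.16 in WT and 3.94 in KLF15-null hearts, too dim to be tested. RefSeq gives 3 start sites for this gene, and which transcripts each probe set reads is not in the sources used here.

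Txnrd2, the mitochondrial reductase gene (chr16:18426417-18479073), was lower on 1 of 2 probe sets. On 1451936_a_at the WT arrays read 6.64, 6.41, 6.63 and 6.73 and the KLF15-null arrays 5.48, 5.24 and 5.17. The KLF15-null mean of 5.30 lay under the level of 5.74, so the signal was at least 2.47-fold lower, at a difference of -1.30. On the brighter 1449097_at the groups overlapped, at 8.04 to 8.21 in WT and 7.80 to 8.09 in KLF15-null hearts, and the difference was -0.13.

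**Figure D3:**
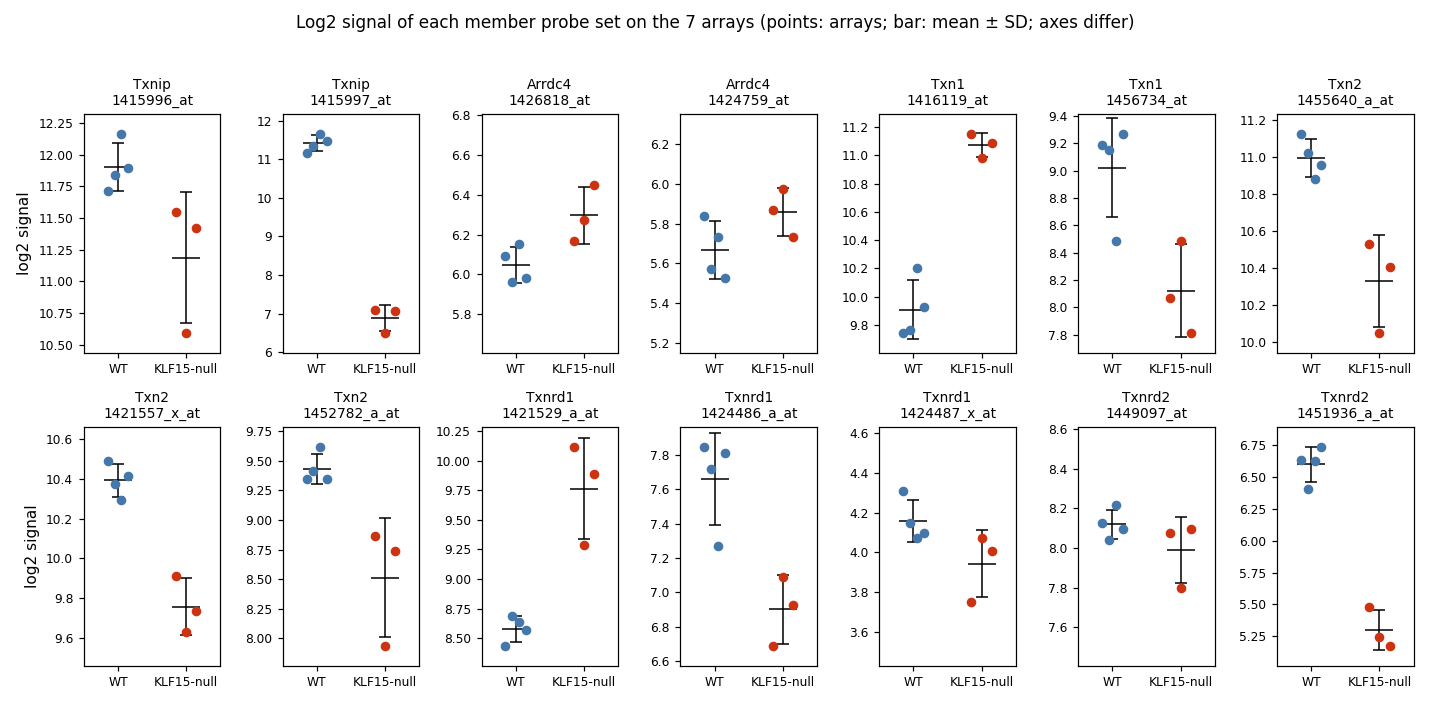
Log2 signal (vertical axes, which differ between panels) of the 14 member probe sets on the WT (blue, n = 4) and KLF15-null (red, n = 3) arrays; each point is an array and the bars give mean ± SD. Both Txnip panels and all 3 Txn2 panels show the red points below the blue ones, whereas Txn1 and Txnrd1 each have a panel in either direction.

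Of the 14 member probe sets 13 were bright enough for the limma fit across all probe sets, and in it 3 were higher and 8 lower at an adjusted p under 0.05. In all 13576 tested probe sets 26.8% were higher and 23.8% lower by the same rule, 50.6% in all. The groups were apart for 10 member probe sets, 3 higher and 7 lower, where they were for 53.0% of all tested probe sets, 27.6% higher and 25.4% lower. Because the contrast had been seen when the members were chosen, nothing is read from these counts. Txnrd2 1451936_a_at passed the brightness filter through its WT values and Arrdc4 1424759_at through its KLF15-null values.

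Set beside probe sets of like brightness, the members ranged widely. The tested probe sets were divided by brightness into 10 bins of like size, and each member was placed by the share of its bin with an equal or lower difference. Txnip 1415997_at, in a bin with a median difference of 0.19, stood at 0.0737%. Txnip 1415996_at stood at 5.52% of the brightest bin, whose 5th and 95th percentiles were -0.75 and 1.37. In that same bin Txn2 1455640_a_at stood at 6.63% and 1421557_x_at at 7.07%, while Txn1 1416119_at stood at 90.0%. The other Txn1 probe set, 1456734_at, stood at 9.87% of its bin. Txnrd1 1421529_a_at stood at 91.4% and 1424486_a_at at 12.0% of theirs, and Txnrd2 1449097_at at 42.2%. Txnrd2 1451936_a_at is not placed, since its difference is only a bound.

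Quantile and cyclic loess normalization moved the bright members Txnip 1415996_at, Txn1 1416119_at and Txn2 1455640_a_at, while median centring raised every member's difference by 0.09. After quantile normalization Txnip 1415996_at stood at -1.09, Txn2 1455640_a_at at -0.99 and Txn1 1416119_at at 0.83. After cyclic loess normalization these were -1.05, -0.94 and 0.92. Txnip 1415997_at stayed between -4.70 and -4.43 under the 3 scalings. No member probe set changed direction under quantile, cyclic loess or median scaling.

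**Figure D4:**
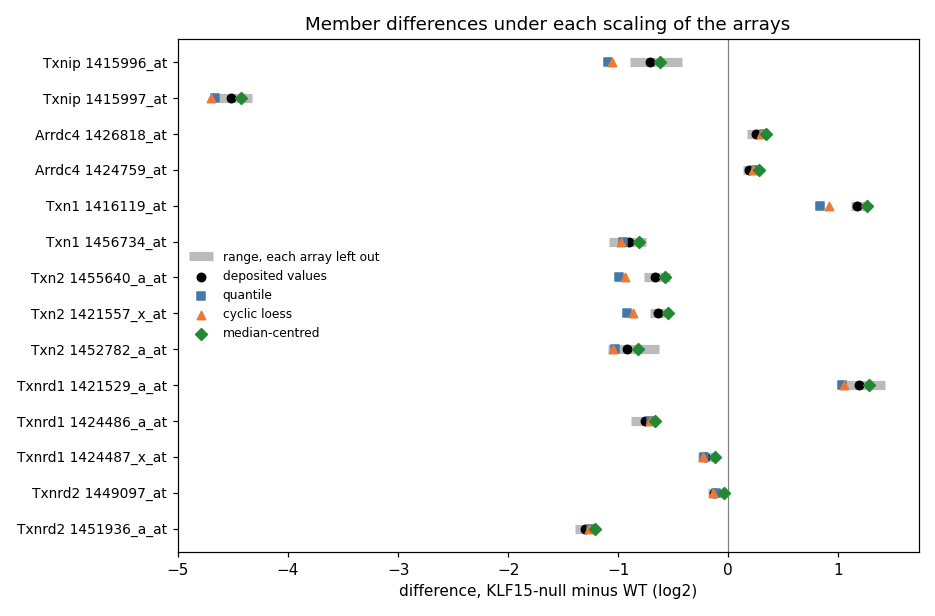
Difference between KLF15-null and WT (log2, horizontal axis) for each of the 14 member probe sets (rows) on the deposited values (black circles) and after quantile (blue squares), cyclic loess (orange triangles) and median (green diamonds) scaling; grey bars span the differences with each array left out. Every row keeps its side of 0, and the blue and orange marks lie left of the black for Txnip 1415996_at (-1.09 and -1.05 against -0.72).

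The 5 genes whose signal over the 7 arrays was most like that of Txnip 1415996_at were Ntan1 (Pearson's r = 0.996), Ilk, which codes for integrin-linked kinase (0.996), the mitochondrial ribosomal protein gene Mrpl42 (0.995), Lamtor5 (0.994) and the oligosaccharyltransferase gene Rpn2 (0.994). Their differences ran from -0.34 for Ntan1 to -0.69 for Mrpl42. Of 8401 genes compared, 290 had an r above 0.95. The 7 points of each share the genotype split and a lowest value on KLF15-null array 2, so these are descriptions of these arrays.

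Genes around the thioredoxin system were taken from 10 lists, with 69 genes tested, each by its brightest probe set. In KLF15-null hearts 20 rose and 15 fell, beside 27.4% higher and 19.6% lower, 46.9% in all, of 8404 genes. Adjusted p-values below are from limma, with Benjamini-Hochberg adjustment over all tested probe sets, n = 4 against 3.

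Other arrestins moved both ways. Arrb2, a β-arrestin, rose by 0.99 (adjusted p = 2.78e-05) and Arrb1 by at least 0.62, since its WT mean of 5.57 lay under the filter level, while the α-arrestin Arrdc1 fell by 0.87 (adjusted p = 0.000571). Further probe sets of Arrb2 and Arrdc1 differed by -0.11 for the first and by -0.01 and 0.04 for the second, none past the threshold. Among HECT ubiquitin ligases, the enzymes that α-arrestins bring to their targets, 2 of 5 fell: Nedd4 by 1.12 (adjusted p = 0.000771), with further probe sets at -1.62 and -2.57, and Nedd4l by 0.59. None of the 5 rose in the limma fit, also with 0 at an unadjusted p under 0.05. Itch, the ligase that marks TXNIP for breakdown, differed by 0.01.

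Of 6 regulators of Txnip transcription 1 rose and 2 fell, with a median of 0.10 against 0.02 for all genes, and the median turned to -0.11 where the probe sets of each gene were averaged. After quantile normalization 1 was higher and 1 lower, and after median centring 2 and 1. Mlxip, which codes for MondoA, differed by 0.26 (adjusted p = 0.102) and Mlxipl, for ChREBP, by 0.06, neither past the threshold. Their partner Mlx fell by 0.32 (adjusted p = 0.0457), a call lost after all 3 scalings (-0.25, -0.26 and -0.23 by quantile, cyclic loess and median) and without any single array except KLF15-null array 3 (-0.43 without it, still called). The glucocorticoid receptor gene Nr3c1 was lower on its brightest probe set, by -0.93 (adjusted p = 0.00785), and stood at -0.13, not past the threshold, on another. Foxo3 rose by 0.70 on its brightest and stood at -0.26, not past the threshold, on another.

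Among 7 genes whose products bind TXNIP or thioredoxin, 4 fell and 2 rose, with a median of -0.96, and 4 fell and 1 rose after quantile and cyclic loess scaling. Map3k5, the kinase ASK1 that reduced thioredoxin holds inactive, fell by at least 1.28. Its KLF15-null mean of 5.55 lay under the filter level, so it passed the filter through its WT values. Cops5 fell by 0.96. Of the glucose transporters that TXNIP removes from the surface, Slc2a4 fell by 1.45 (a further probe set stood at -3.85, a bound, since its KLF15-null mean of 5.65 lay under the filter level) and Slc2a1 rose by 2.18 (by 1.96 and, not past the threshold, 0.20 on others). Nlrp3, the inflammasome sensor, differed by 0.03.

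Of 7 peroxiredoxin and methionine sulfoxide reductase genes only Srxn1, which restores overoxidized peroxiredoxins, was called: it rose by 1.01 (adjusted p = 0.000304), with further probe sets at 0.56 (called) and -0.02. Prdx3, the mitochondrial peroxiredoxin that TXN2 serves, differed by 0.20 and turned to -0.20 with quantile scaling and to -0.10 with cyclic loess. The list's median turned with it, from 0.15 to -0.20 and -0.10. No gene of that list fell in the limma fit (0 at an unadjusted p under 0.05), whereas 2 were lower with quantile scaling and 3 with cyclic loess. Prdx4, the peroxiredoxin of the endoplasmic reticulum, stood at 0.16 on its brightest probe set, not past the threshold, and rose by 0.64 and, from a WT mean of 5.20 under the filter level, by at least 1.78 on others.

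In the list of other thioredoxin-fold and glutaredoxin genes 7 of 14 rose and none fell in the limma fit (0 at an unadjusted p under 0.05), with a median of 0.34. Txnl1, a proteasome-associated thioredoxin, rose by 1.49 (adjusted p = 4.6e-05) and by 0.43 and 0.81 on other probe sets. Txndc17 rose by 1.43, the mitochondrial glutaredoxin gene Glrx2 by 0.83 and Txndc9 by 1.05. Further probe sets of Glrx2 stood at 0.34 (called) and 0.23 (not past the threshold). A second probe set of Txndc9 stood at 0.14, not past the threshold. After each of the 3 scalings 9 of the 14 were higher and none lower. Where the probe sets of each gene were averaged, 6 were higher and 3 lower.

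Suppliers of NADPH had 3 of 8 genes higher and 1 lower, and 2 higher and 3 lower after quantile and after cyclic loess scaling. Of the higher ones, Mthfd2 rose by at least 0.69, since its WT mean of 5.71 lay under the filter level. Mthfd1 rose by 0.39 on its brightest probe set and was called lower on another, at -0.31. Pgd of the pentose phosphate pathway rose by 1.98 (adjusted p = 3.27e-06) and on its other probe sets by 2.18, 2.17 and 0.53. Nnt, the mitochondrial transhydrogenase that supplies the TXNRD2 pathway, fell by 0.59 on 1 probe set and rose by 0.71 on another. Of 6 genes of selenocysteine incorporation, which both reductases need, 3 fell and none rose in the limma fit (0 at an unadjusted p under 0.05). Sephs2, which makes the selenium donor, was lower by -1.11 on its brightest probe set, and a further one rose by 1.66. Secisbp2l stood at 0.19, not past the threshold, with a further probe set called lower at -0.76, a bound, since its KLF15-null mean of 5.33 lay under the filter level.

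Among NRF2, the factor that drives antioxidant genes such as Txnrd1, and its targets, 5 of 12 rose and 2 fell, and 5 and 4 did after quantile and cyclic loess scaling. Tkt of the pentose phosphate pathway rose by 1.75 on its brightest probe set and differed by 0.32, not past the threshold, on another. Abcc1 rose by 0.63, and the ferritin gene Fth1 fell by 0.74, with a further probe set at 0.20, not past the threshold. Classic NRF2 targets differed among themselves. Nqo1 and Gclc stood at -0.28 and -0.19, not past the threshold (adjusted p = 0.0766 and 0.231). Hmox1 was called higher, at 0.82 with overlapping groups (adjusted p = 0.0237), and Gclm lower, at -0.41 (adjusted p = 0.0427). Nfe2l2, which codes for NRF2, stood at 0.18, not past the threshold. Of the ribonucleotide reductase genes, whose enzyme takes electrons from thioredoxin, neither of the 2 tested was called in the limma fit (1 at an unadjusted p under 0.05): Rrm2b stood at 0.27 and Rrm1 at -0.05, and Rrm1 changed sign after each scaling, with a further probe set called lower at -0.51.

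**Figure D5:**
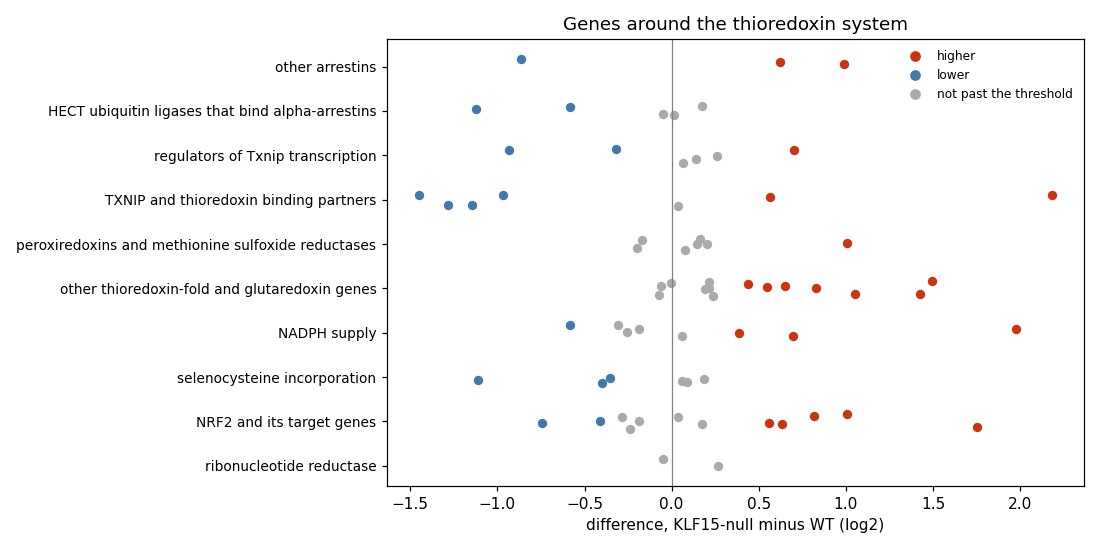
Difference between KLF15-null and WT (log2, horizontal axis) of each tested gene in the 10 lists around the thioredoxin system (rows); red points are higher and blue points lower at an adjusted p under 0.05 by limma, grey points are not past that threshold, and points are spread vertically only to be seen. The row of other thioredoxin-fold and glutaredoxin genes has 7 red points and no blue one, and the row of binding partners has 4 blue points and 2 red.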

How the data were processed

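The values deposited by the authors, from 3.20 to 14.28, were taken as log2 signals because of that range. The submitters' processing notes name GCOS and nothing on its role; summarization and scaling are not stated in the sources used here. In 47.3% of probe sets at least 2 arrays carry exactly the same value, 4 member probe sets among them. Array medians differed by 0.12, within the limit of 0.15 set for using the values as deposited.

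Genes were named through the platform annotation; 20380 of 22626 probe sets had 1 symbol, 691 several and 1555 none, and 0 symbols changed against RefSeq (GRCm38.p6). Probe sets whose mean over the 7 arrays reached the 40th percentile, log2 5.74, were fitted with limma 3.58.1 in R 4.3.3 (genotype only, intensity trend, Benjamini-Hochberg over 13576 probe sets, threshold 0.05). A list gene was its brightest kept probe set. The procedure was tested on simulated data. Named were Klf15, all member probe sets, up to 4 genes per list by smallest p, and the 5 genes most like Txnip. Itch, Nlrp3, Mlxipl, Nqo1, Gclc, Hmox1, Gclm, Nfe2l2 and the marker genes were added for their role after their values were seen. The members and lists were chosen with earlier results of these data known. Alternatives were 2 other filters, 3 scalings, no trend, array weights, a replicate block, a threshold of 0.1, averaging a gene's probe sets and leaving out each array. Same-numbered arrays deviated from their group means with correlations of -0.14, -0.02 and 0.19, so numbers were not taken as pairs.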

Additional observations from a re-analysis of the deposited data

Results flagged for a closer look

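On Txn1 1456734_at, WT array 3 stood apart from the other WT arrays, at 8.49 against 9.15 to 9.27. Its gap to the nearest of them was 0.849 of the group's whole range, above the limit of Dixon's test for 4 samples. It was the only one of 14 member probe sets with such a gap among the WT arrays, and chance gives such a gap in about 1 of 20 groups. Without that array the difference was -1.08 against -0.90.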

How the results depend on the processing

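The counts of probe sets, members, pathway genes and markers past the threshold stayed within 1.5 times their value in every alternative run. Among members the count was 9 to 12 against 11, and 9 to 11 with each array left out. Txnip 1415996_at moved by more than the replicate SD with quantile normalization, to -1.09, and lay between -0.89 and -0.42 with each array left out; it was not called without WT array 3 or without WT array 4, and array weights gave -0.47. Arrdc4 1426818_at was not called with no filter, no intensity trend or the replicate block, nor without WT arrays 1, 2 or 4 or KLF15-null arrays 2 or 3. With the replicate block 10 member probe sets were called against 11 and Txnip 1415996_at stood at -0.72. The share of higher calls among all probe sets rose with median centring, to 4473 higher and 2593 lower against 3637 and 3235.

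Among the list genes followed singly under each alternative (up to 4 a list), signs turned for Wwp2, Prdx3 and Rrm1; those not followed can have turned too. Wwp2 stood at -0.05 and at 0.0083 with quantile normalization, 0.040 with median centring and 0.025 with array weights, and lay between -0.21 and 0.16 with each array left out, the highest without KLF15-null array 2. Prdx3 stood at 0.20 and at -0.20 with quantile and -0.10 with cyclic loess normalization. Rrm1 stood at -0.05 and at 0.030 with quantile, 0.0068 with cyclic loess normalization and 0.045 with median centring. The cause of these turns was not tested. Among weakly called genes, Eefsec and Sars lost their call without KLF15-null array 3, and Mthfd1 and Sars with the replicate block. The table gives no depth, and 7 arrays limit the precision.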
